A study of Caenorhabditis elegans with 2 samples.

Results

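The somatic gonad of Caenorhabditis elegans is built from a pair of mesodermal precursor cells that arise in the embryo, flank the germline precursors and later give rise to the anchor cell, the distal tip cells, the gonadal sheath, the spermatheca and the uterus. The 10 genes described here, hnd-1, tra-1, hlh-2, hlh-12, fos-1, egl-43, lim-7, lag-2, lin-12 and gon-1, act in these precursors or in their descendants. They were listed by name, from 19973 protein-coding genes on the 6 nuclear chromosomes of assembly WBcel235. ZTF-16 belongs to the C2H2 zinc-finger proteins related to Hunchback and Ikaros, and is known from worm genetics to act together with its relative EHN-3 in the development of the somatic gonad precursors. The question put to the data was therefore where the tagged protein was recovered at genes of this lineage.

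The series mapped ZTF-16 by chromatin immunoprecipitation and sequencing (ChIP-seq) in 1 group of 2 biological replicates, with no second condition. Strain OP558 carries the integrated transgene wgIs558, a ZTF-16 fusion whose C-terminal end bears GFP and FLAG, in the unc-119(tm4063) III background, and an antibody against GFP was used. Mixed-sex late embryos were collected 5 hours after egg bleaching and used whole, so a site cannot be assigned to any cell type, and no expression was measured by which the gonadal identity of the genes could be checked. No list from animals without the tagged protein was analysed here.

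Each member was given a locus, meaning its gene body plus the intergenic sequence upstream of its 5' end, as far as the next protein-coding gene and at most 10 kb. A peak belonged to a locus when its summit lay inside it. The authors' lists on assembly ce11 numbered 21235 peaks in replicate 1, 18242 in replicate 2 and 14968 when both were pooled, all of them relaxed lists that include background. The 822 pooled peaks with the highest signal formed the list that had passed the irreproducible discovery rate (IDR) threshold. The signal value is the output of the authors' peak caller, has no further unit and can be compared only within a list. It ran from 28.4 to 835 in the pooled list, with a median of 35.9, and the weakest IDR-thresholded peak had a signal of 77.4. The corresponding medians were 18.9 in replicate 1 and 19.1 in replicate 2. The lists carry no read numbers, so depth is unknown.

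IDR-thresholded peaks were found at 2 of the 10 loci, 1 at fos-1 and 1 at lim-7, where 5.04% of all protein-coding gene loci held such a summit. Neither lay next to the member's 5' end, since the fos-1 summit was 3066 bp upstream and the lim-7 summit 9574 bp upstream and beside a snoRNA gene. The relaxed pooled list had at least 1 summit in 9 of the 10 loci, against 43% of all loci. A pooled summit with a partner within 200 bp in each replicate was found in 7 of the 10, namely tra-1, hlh-2, fos-1, egl-43, lim-7, lin-12 and gon-1, against 25.4% of all loci.

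**Figure D1:**
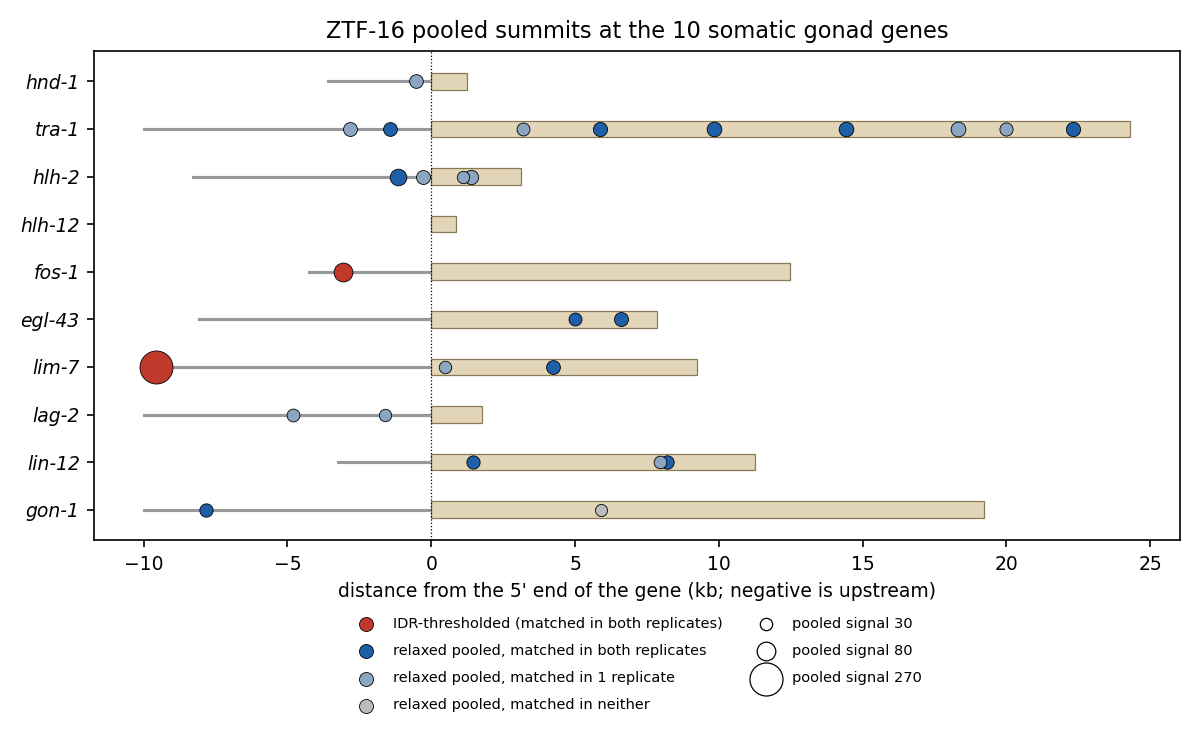
Position of the 27 pooled summits in the loci of the 10 members. The horizontal axis gives the distance from the 5' end of each gene in kb, negative upstream; grey lines are the upstream stretches, bars are the gene bodies, point area rises with the pooled signal value and colour gives the match in the replicates. The 2 IDR-thresholded summits are both upstream, at fos-1 and lim-7, and tra-1 holds 9 of the 27.

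These shares have to be read against the length of the loci. The members' loci had a median length of 15.2 kb and those of all genes 3.54 kb, and longer loci held a summit more often. An IDR-thresholded summit lay in 3.41% of loci under 5 kb, 7.32% of those from 5 to 15 kb, 12.2% of those from 15 to 25 kb and 12.1% of longer ones. Adding up the share of its length class for each member gave 0.898 genes with an IDR-thresholded summit, where 2 were found. The same sums were 7.19 genes for a pooled summit, where 9 were found, and 5.10 for a summit matched in both replicates, where 7 were found. Per length, the members' loci held 1.70 pooled summits per 10 kb and all protein-coding gene loci 1.52. Of the 27 summits behind the members' value, 9 were from tra-1, with 34.3 of 159 kb. For IDR-thresholded summits the densities were 0.126 and 0.0822, the members' value resting on 2 summits. The strongest pooled summit of a locus had a median signal of 40.9 over the 9 members with one and 40.3 over all 8583 such loci. The 10 genes were chosen by name with earlier results of these data known. These differences were therefore not tested, and the shares are given as a description.

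**Figure D2:**
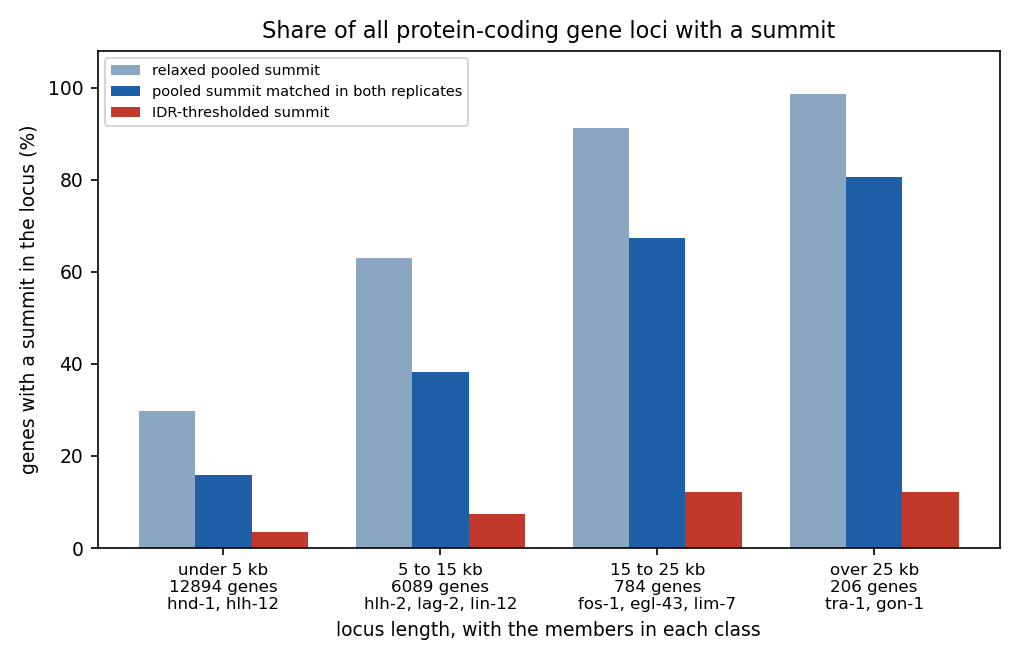
Share of protein-coding gene loci that hold a summit, in percent, by locus length. Bars stand for a relaxed pooled summit, a pooled summit matched in both replicates and an IDR-thresholded summit, and the members in each class are named under it. The pooled share rises from 29.7% of the shortest to 98.5% of the longest loci, the class of tra-1 and gon-1.

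Of the 27 pooled summits in the members' loci, 14 (51.9%) were matched in both replicates, 8 in replicate 1 alone, 4 in replicate 2 alone and 1 in neither. In the whole pooled list 43.3% were matched in both. By position, 16 lay in introns of the member, 10 upstream and 1 in a coding exon, and none in an untranslated exon. Over all pairs of a gene and a pooled summit in its locus, 32.9% were intronic, 46.9% upstream, 15.1% in coding exons and 5.10% in untranslated exons. A further 25 replicate peaks in 8 of the loci had no pooled summit within 200 bp. Not 1 of these 25 had a partner in the other replicate.

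The members that encode transcription factors of the early precursors are hnd-1, whose product is a basic helix-loop-helix (bHLH) protein of the Hand type needed for the survival of the precursors, and tra-1, whose product is the GLI-type zinc-finger protein at the end of the sex determination pathway. The hnd-1 gene (WBGene00001981, X:11684561 to 11685788, plus strand) had a single pooled summit, at X:11684040 and 521 bp upstream of the 5' end. It had a pooled signal of 39.2 and rank 5591, a signal of 25.8 and rank 3731 in replicate 1, and no partner in replicate 2. The only other peak in the locus, 1330 bp upstream, was also from replicate 1 alone, with a signal of 19.3. The hnd-1 summit was therefore above the median signal of the pooled list and of replicate 1, and was seen in 1 replicate.

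The tra-1 gene (WBGene00006604, III:11170890 to 11195201, minus strand) had the longest locus of the 10, with a body of 24.3 kb, and 9 of the 27 pooled summits. Introns held 7 of them and the upstream stretch held 2. Their pooled signals lay between 33.7 and 47.0, all below the IDR-thresholded range, and 5 were matched in both replicates. The strongest, 18331 bp into the gene at III:11176870, had a signal of 47.0 and rank 3097, with 27.6 in replicate 1 and no partner in replicate 2. Next came III:11185357, 9844 bp into the gene, with a pooled signal of 46.3, 28.5 in replicate 1 and 15.7 in replicate 2, where its rank was 16188 of 18242. The summit at III:11189320, 5881 bp into the gene, had 22.9 in replicate 1 (rank 5666) and 24.1 in replicate 2 (rank 4068). The summit nearest to the 5' end, 1427 bp upstream, had 21.7 and 18.1. Summits of tra-1 were thus spread along the gene, at 2.62 pooled summits per 10 kb, and none stood out by signal.

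Much of the tra-1 locus is repeat sequence. Of its bases 50.7% are soft-masked as repeat in the RefSeq genome file, against 35.7% of the 6 nuclear chromosomes and 18.97% to 42.5% of the other 9 loci. In windows reaching 100 bp to either side of a summit, at least 50% of the bases were masked at 6 of the 9 tra-1 summits, compared with 2 of the 18 others. The value was 24.7% of windows in the whole pooled list and 13.1% in the IDR-thresholded list. No source used here says how reads mapping to several places were handled, and the part of masked sequence in the tra-1 peaks was not tested.

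Sequence at 4 summits is printed here, as the places to which several of the results refer: the only IDR-thresholded peak of fos-1, the promoter summit of hnd-1, the strongest tra-1 summit matched in both replicates and the stronger of the egl-43 summits. Each is 201 bases of the plus strand of WBcel235 (RefSeq), centred on the summit. Capitals mark matches, on either strand, to AAAAAA (an A-tract, the kind of site bound by fly Hunchback), GGGAA (the core of mammalian Ikaros sites), TGGGAA (the core of sites for the Notch pathway factor LAG-1, which holds GGGAA) and CANNTG (the E-box of bHLH proteins). The regions are chrV:6000435-6000635 for fos-1, chrX:11683940-11684140 for hnd-1, chrIII:11185257-11185457 for tra-1 and chrII:9961692-9961892 for egl-43, where the last 64 bases are coding.
fos-1: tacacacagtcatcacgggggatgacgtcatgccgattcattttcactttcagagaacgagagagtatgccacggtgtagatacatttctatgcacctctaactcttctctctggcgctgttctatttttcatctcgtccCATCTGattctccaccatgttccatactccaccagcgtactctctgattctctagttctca
hnd-1: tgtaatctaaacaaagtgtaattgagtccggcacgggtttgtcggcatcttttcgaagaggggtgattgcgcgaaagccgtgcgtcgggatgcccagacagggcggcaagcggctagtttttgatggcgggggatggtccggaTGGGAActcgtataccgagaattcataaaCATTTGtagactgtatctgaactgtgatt
tra-1: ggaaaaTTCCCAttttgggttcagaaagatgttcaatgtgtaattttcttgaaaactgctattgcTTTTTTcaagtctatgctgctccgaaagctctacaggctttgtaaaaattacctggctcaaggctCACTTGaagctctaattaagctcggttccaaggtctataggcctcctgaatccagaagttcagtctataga
egl-43: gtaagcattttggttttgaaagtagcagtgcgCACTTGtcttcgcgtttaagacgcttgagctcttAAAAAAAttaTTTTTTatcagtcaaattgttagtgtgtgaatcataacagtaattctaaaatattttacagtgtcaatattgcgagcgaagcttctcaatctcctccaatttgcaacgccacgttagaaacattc

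The fos-1 window held an E-box at bases 141 to 146 and neither an A-tract nor GGGAA. In the hnd-1 window TGGGAA lay at bases 144 to 149 and an E-box at 173 to 178. The tra-1 window had TGGGAA on the minus strand at bases 7 to 12, an A-tract at 66 to 71 and an E-box at 131 to 136. A-tracts on both strands lay close together in the egl-43 window, at bases 67 to 73 and 77 to 82, with an E-box at 33 to 38. Over all 27 windows of the members, 17 (63.0%) held an A-tract, 14 (51.9%) GGGAA, 4 (14.8%) TGGGAA and 15 (55.6%) an E-box. Windows of all pooled peaks had these at 57.6%, 35.4%, 12.1% and 52.7%, and those of IDR-thresholded peaks at 52.3%, 40.1%, 10.9% and 53.3%. In stretches of the same length before the 5' end of every protein-coding gene they were at 70.6%, 32.6%, 12.4% and 51.3%. The members' 27 windows are not independent, as 9 are from tra-1. The site TGGGTGGTC, bound by TRA-1, was in none of the 27 windows and in 0.167% of all pooled windows. A match is only a description of the letters. The GC content of the members' windows was 40.5% ± 6.29 (SD, 27 windows), against 39.8% ± 7.68 over the pooled list and 45.3% ± 7.22 over the IDR-thresholded list.

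Among the factors of the anchor cell, the gonadal cell that induces the vulva, fos-1 encodes the worm Fos protein, a bZIP factor needed for the anchor cell to breach the basement membrane. The gene (WBGene00001345, V:6003601 to 6016087, plus strand) had 1 pooled summit, the IDR-thresholded one at V:6000535 (peak 6000315 to 6000754). Its pooled signal was 82.2 at rank 731, in the lowest part of the 822. Replicate 1 gave a signal of 32.7 at rank 1659 and replicate 2 a signal of 42.1 at rank 757, with summits 16 and 3 bp from the pooled one. The peak thus ranked among the strongest 822 in replicate 2 and not in replicate 1. The summit lay in intergenic sequence 1191 bp from cpg-4, the next protein-coding gene upstream, and fos-1 had the nearest 5' end. An annotated non-coding RNA gene, C10F3.15, lies 43 bp from the summit and inside the peak, on the side away from fos-1. The antisense RNA gene anr-32 (V:6003575 to 6006746) overlaps the 5' end of fos-1. When the upstream stretch was ended at any annotated gene, anr-32 left none, and fos-1 had no IDR-thresholded peak. No tRNA, snoRNA, snRNA, rRNA or miRNA gene was within 200 bp, and C10F3.15, annotated as ncRNA, is of none of these classes. None of the window was masked as repeat. No pooled summit was found in the 12.5 kb gene body, with its 6 annotated transcript starts.

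The gene egl-43 (WBGene00001207, II:9955185 to 9963020, plus strand), for a zinc-finger factor of the EVI1 type needed for anchor cell fate and invasion, had 2 pooled summits, both intronic and both matched in each replicate. That at II:9961792 had a pooled signal of 40.9 (rank 4828), with 18.9 in replicate 1 and 17.7 in replicate 2. The other, at II:9960193, had a pooled signal of 33.9 (rank 8931), with 15.5 and 17.8, and lay 38 bp upstream of an internal transcript start of the gene. Of the members' 27 summits it was the closest to an annotated transcript start of its gene. All 4 replicate signals were at or below the median of their list, so these peaks were weak in both replicates. For the summit at II:9961792 the nearest 5' end of a gene was that of dtmk-1, at 5307 bp. An internal transcript start of egl-43 was nearer, at 1561 bp.

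**Figure D3:**
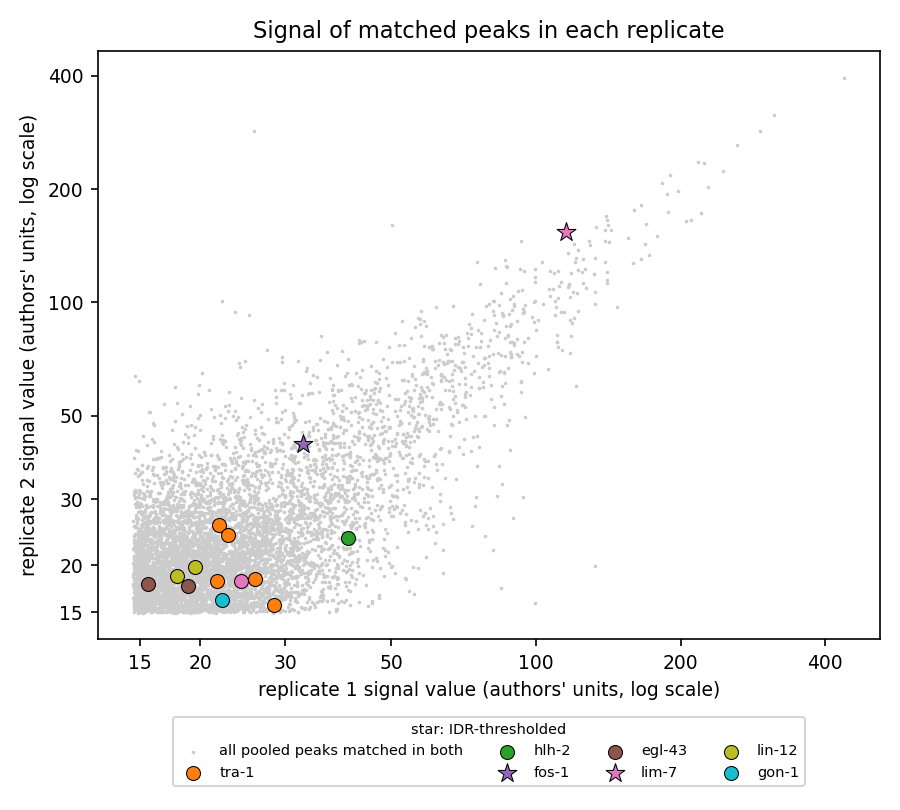
Signal value of matched peaks in replicate 1 (horizontal) and replicate 2 (vertical), both in the authors' units on log scales. Grey points are all pooled peaks with a partner within 200 bp in each replicate, coloured points are the 14 of the members, and stars are IDR-thresholded. The lim-7 star lies among the strong peaks with 116 and 154, the fos-1 star has 32.7 and 42.1, and the other 12 lie between 15.5 and 40.5 in replicate 1 and between 15.7 and 25.6 in replicate 2.

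HLH-2, the worm E/Daughterless bHLH protein, is the shared partner of other bHLH factors and acts in the choice between anchor cell and ventral uterine fate and in lag-2 expression. Its gene (WBGene00001949, I:7190788 to 7193920, minus strand) had 4 pooled summits, and the density of 3.50 per 10 kb was the highest of the 10 loci. The strongest, at I:7195089 and 1169 bp upstream, had a pooled signal of 61.6 and rank 1406, the highest rank of a member's peak outside the IDR-thresholded list. It had a signal of 40.5 at rank 916 in replicate 1 and 23.6 at rank 4356 in replicate 2. The replicate summits lay 92 and 96 bp from the pooled one. A second upstream summit, 295 bp from the 5' end, had a pooled signal of 40.8 and was matched in replicate 1 alone, with 29.6. The intronic summits, with pooled signals of 43.3 and 30.2, were each matched in 1 replicate, the first with 28.0 in replicate 2 and the other with 26.7 in replicate 1. Only the first upstream site was therefore seen in both replicates.

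For hlh-12, a bHLH gene whose product acts with HLH-2 in the migrating distal tip cells, no summit was found in any of the lists. Its locus (WBGene00001956, IV:8478595 to 8479446, minus strand) was the shortest, 0.852 kb, because spp-10 overlaps the 5' end and leaves no upstream stretch. When peaks were assigned by overlap in place of their summit, a pooled peak reached into this locus. All 10 members then had one, beside 46.1% of all genes.

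The gene lim-7 encodes a LIM homeodomain factor that marks the gonadal sheath. Its strongest peak had a pooled signal of 270 at rank 36, a signal of 116 at rank 70 in replicate 1 and 154 at rank 26 in replicate 2, with summits 1 bp from the pooled one. This was the strongest peak of any member in the pooled list and in both replicates. The summit, at I:5707000, lay 9574 bp upstream of lim-7 (WBGene00002989, I:5716574 to 5725809, plus strand), near the limit of the locus. It was 46 bp from the snoRNA gene T19B4.8 (I:5707046 to 5707119), and the nearest 5' end of a protein-coding gene was that of pamn-1, at 4844 bp. Without peaks within 200 bp of genes of those small RNA classes, with the nearest 5' end alone or with an upstream limit of 5 kb, lim-7 had no IDR-thresholded peak. Closer to the gene, an intronic summit 4238 bp past the 5' end had a pooled signal of 39.7, with 24.3 in replicate 1 and 18.2 in replicate 2. Another, 494 bp past the 5' end, had a pooled signal of 30.9 and was matched in replicate 1 alone, with 23.3.

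Of the Notch pair, lag-2 encodes the DSL ligand by which the distal tip cell maintains germline stem cells, and lin-12 encodes the receptor that acts in the anchor cell decision. The lag-2 locus (WBGene00002246, V:3188343 to 3190115, plus strand) had 2 pooled summits, 4791 and 1607 bp upstream, with pooled signals of 33.4 and 30.2. Both were matched in replicate 1 alone, with 26.6 and 22.02, and replicate 2 had no peak at all in the locus. The nearest IDR-thresholded summit was 399516 bp from the 5' end. At lin-12 (WBGene00003001, III:9060221 to 9071472, minus strand) there were 3 pooled summits, all inside the gene. The one 1445 bp past the 5' end, in an intron, had a pooled signal of 36.0 with 17.9 and 18.8 in the replicates. A pair close together near the 3' end, with pooled signals of 36.9 in a coding exon and 32.2 in an intron, had the same replicate 2 peak as its partner, with a signal of 19.7. That shared peak lay 156 bp from the exonic summit and 77 bp from the intronic one. Of that pair the exonic summit alone had a partner in replicate 1, with 19.5. For both summits of the pair the nearest 5' end was that of gst-1, at 3960 and 4193 bp.

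The gene gon-1, for a secreted metalloprotease of the ADAMTS family required for gonad elongation, had 2 pooled summits in a locus of 29.2 kb (WBGene00001650, IV:9934206 to 9953433, minus strand). The one 7824 bp upstream had a pooled signal of 36.4, with 22.2 in replicate 1 and 16.2 in replicate 2, and lay nearer to the 5' end of T13H10.2. The intronic one had a pooled signal of 28.7, close to the lowest in the list, and no partner in either replicate. At 0.684 pooled summits per 10 kb gon-1 was, with fos-1 (0.597) and hlh-12 (0), among the loci with the fewest for their length.

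Of 59 other genes of somatic gonad development, 5 had an IDR-thresholded summit in the locus (8.47%, beside 5.04% of all genes). A pooled summit was found at 48 (81.4%, beside 43%), and one matched in both replicates at 32 (54.2%, beside 25.4%). The loci of the 59 had a median length of 11.6 kb, and the sums of their length-class shares were 4.84, 39.7 and 26.4 genes. The 59 were also chosen with earlier results of these data known, and these differences were not tested. The 5 were ztf-16 itself, lit-1, him-4, pat-3 and sup-17. The ztf-16 locus had 3 such summits, and it is also the gene from which the transgene was made, so extra copies in the strain cannot be told apart from binding there. The strongest was in him-4, the hemicentin gene, with a pooled signal of 348 at X:9743622, 26057 bp into the gene and within 200 bp of 2 tRNA genes. The pat-3 locus, for a beta integrin, had a summit with signal 172, which lay 147 bp from the 5' end of ccdc-47 and 2671 bp upstream of pat-3. In lit-1, for a Nemo-like kinase of the Wnt asymmetry pathway, an intronic summit had signal 93.4, and one 5990 bp upstream of sup-17, for an ADAM protease that cleaves Notch receptors, had 80.9. Only at ztf-16 was the listed gene the one with the nearest 5' end.

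By role, IDR-thresholded summits were found at 2 of 13 genes of precursor fate and the proximal-distal axis, 2 of 11 anchor cell genes and 1 of 8 Notch signalling genes. There were none at 11 genes of distal tip cell migration and basement membrane, 9 of the sheath and spermatheca and 7 of sex determination upstream of tra-1. With 5.04% of all genes holding such a summit, groups of this size do not show a difference between roles, and none was tested. Among the listed genes without an IDR-thresholded summit, the highest-ranked summits matched in both replicates were at unc-40 (pooled signal 66.95, 267 bp upstream), for the netrin receptor, and lag-1 (65.6, intronic), for the CSL factor of Notch signalling. They were followed by pbrm-1 (64.1, intronic, with the 5' end of C26C6.8 nearer), for a SWI/SNF subunit. Next were cki-1 (62.4, 4276 bp upstream), for a cyclin-dependent kinase inhibitor, and sdc-2 (60.6, 347 bp upstream), of the dosage compensation and sex determination machinery. At lin-3, the EGF gene expressed by the anchor cell, and fem-3, of the sex determination pathway, the values were 59.8 (116 bp upstream) and 59.2 (125 bp past the 5' end). The hlh-2 upstream summit, with 61.6, was of the same order. The gene ehn-3, the partner of ztf-16, had no pooled summit in its locus.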

How the data were processed

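ChIP-seq peak lists of the tagged ZTF-16 protein from 2 biological replicates of 1 group were used. Per the deposited file notes, a relaxed list was made by the authors from a replicate's alignment, or both, plus 1 further file shared by the replicates and taken here to be the control. The IDR-thresholded list derives from the relaxed ones. The deposited signal value of a peak was used to rank peaks within a list and to describe them. No source used here names the aligner, the peak caller or the IDR threshold. The 4 lists on ce11 were used, and the 4 on ce10 were not. The lists were used without read numbers, so depth, and with it the precision of a signal, is unknown.

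Gene models were those of Ensembl 115 (WBcel235, the same assembly as ce11), and sequence from the RefSeq file of that assembly. Positions are 1-based. A replicate peak matched a pooled summit when the nearest of its summits lay within 200 bp. The same counts over all 19973 protein-coding genes stand beside those of the members, and no significance tests were made, since there is 1 group. The members, the list of 59 other genes and the motifs were chosen with earlier results of these data known. The text names all 10 members, other genes with an IDR-thresholded peak and, up to 12 in all, those with the highest-ranked matched pooled peak. It also names some, not all, of the genes whose 5' end is nearer to a summit than that of the listed gene. The code that assigns and matches summits was first checked on simulated summits of known position. Alternatives varied the upstream limit, its boundary, the assignment, the match distance and the list. Python 3.11.15 with numpy 2.4.6 and matplotlib 3.10.9 was used.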

Additional observations from a re-analysis of the deposited data

How the results depend on the processing

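Of 63 recomputed values, 53 were within 1.5 times the reported one. The count of members with an IDR-thresholded peak, 2 as reported, moved most often. It was 1 with an upstream limit of 5 kb (4.78% of all genes), without peaks near tRNA, snoRNA, snRNA, rRNA or miRNA genes (3.98%), in the upper 411 peaks by signal (2.53%), and when each peak went only to the gene with the nearest 5' end (3.20%), an alternative chosen after seeing the data. It was 0 when the upstream stretch ended at any annotated gene (4.0004%). These shares of all genes fell from 5.04% as well. With the strongest 822 peaks of replicate 2 alone it was 2 (4.99% of all genes), and of replicate 1 alone it was 1, without fos-1 (4.88%). With nearest 5' ends alone, 9 of the members' pooled summits were matched in both replicates, where 14 were reported. Of the 59 other genes, 1 then had an IDR-thresholded peak, where 5 were reported, beside 3.20% of all genes. That last count was 3 in the upper 411 peaks (2.53% of all genes). It was 4 in the strongest 822 peaks of replicate 2 alone (4.99%) and 8 in those of replicate 1 alone (4.88%). The matched counts need both replicates, so leaving one out gives no value for them. With a match distance of 100 bp, 10 of the members' pooled summits were matched in both replicates, where 14 were reported. Members with such a summit were then 6, without gon-1, where 7 were reported, beside 21.1% of all genes. No read numbers are known, so how far depth limits the weak peaks could not be judged.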
